A study of Mus musculus with 40 samples.

Results

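The 7 genes described here encode the enzymes that write and remove DNA methylation in mouse cells, together with the protein that guides its copying: Dnmt1, Dnmt3a, Dnmt3b, Uhrf1, Tet1, Tet2 and Tet3. They were chosen by name, and all 7 were found once in each of the 6 deposited expression tables, which hold between 16344 and 26640 genes. The 40 RNA-seq libraries, in 12 groups, came from bone marrow of C57BL/6 mice, either from hematopoietic stem cells (HSCs) or from multipotent progenitors (MPPs). Libraries are labelled WT or HIRA KO. Hira encodes a subunit of the complex that deposits histone H3.3 independently of DNA synthesis. Deletion was induced with 2 doses of 20 µg of poly(I:C), an inducer of interferon and so of the Mx1-Cre recombinase, and the labels give this treatment for every library.

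In the first cohort, called total here, sorting took place 1 week from the start of poly(I:C), with 2500 cells collected and no GFP, and each cell type has 4 WT and 4 labelled KO libraries. In the GFP cohort the stated genotype was Mx1-Cre; Hira fl/fl; Rosa26-M2rtTA; TetOP-H2B-GFP. Doxycycline in the drinking water (2 mg/ml, sweetened) turned on a histone H2B fused to GFP for 6 weeks. During a 17-day chase each division dilutes the label, so GFP-low cells are those with more divisions behind them. The sort followed 15 days from the final poly(I:C) dose, giving 3 WT and 3 labelled KO libraries for each of HSC GFP-high, HSC GFP-low, MPP GFP-high and MPP GFP-low. The alleles carried by the WT mice are not spelled out in the labels beyond WT, the Cre of the first cohort is not named, and Mx1-Cre also acts outside blood cells and depends on an interferon response. The labels do not say whether each library came from its own mouse, so the p-values measure the spread between libraries, which may be partly technical.

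DNA methylation in mammals sits mainly on cytosines followed by guanine. DNMT1, recruited by UHRF1 to half-methylated sites behind the replication fork, copies the pattern to the new strand, while DNMT3A and DNMT3B set methylation on unmethylated DNA. The TET enzymes oxidize 5-methylcytosine, which can lead to its loss by dilution or by base excision repair. In blood stem cells, loss of Dnmt1 impairs self-renewal, whereas mutations of DNMT3A and TET2 are among the most frequent in clonal hematopoiesis and myeloid disease.

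The genes lie on 7 chromosomes of GRCm38 (mm10), by GENCODE annotation. Dnmt1 occupies chr9:20907209-20959888 on the minus strand, and Uhrf1 occupies chr17:56303321-56323486 on the plus strand. Dnmt3a lies at chr12:3806007-3914443 and Dnmt3b at chr2:153649450-153687730, both on the plus strand. Tet1 lies at chr10:62804570-62908996, Tet2 at chr3:133463679-133545139 and Tet3 at chr6:83362373-83459084, all on the minus strand. Dnmt3a, Dnmt3b, Tet2 and Tet3 each overlap an annotated gene on the opposite strand (Dnmt3aos, Dnmt3bos, Gm42567 and B230319C09Rik). Whether the authors' counting used strand is not given in the sources used here, so reads of these 4 genes cannot be told apart from those of their partners.

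Dnmt1 and Uhrf1 are shown with sequence because they are the pair whose values moved together in the libraries. RefSeq promoter windows of GRCm38.p6, each the 250 bases before an annotated start, matched all 7 genes and held 12 of their starts. The motifs searched on both strands were GGGCGG (in 32.7% of all windows), CACGTG (6.02%), CCAAT and 2 forms of the binding site of the E2F factors that drive S phase genes. The letters TTTGGCGC occurred in 137 of 32851 windows (0.417%) and in none of the members'. The letters TTTCGCGC occurred in 84 of 32851 windows, or 0.256%. Among the members only 1 window of Dnmt1 and 1 of Uhrf1 held TTTCGCGC, shown here as 30 bases on the gene's own strand with the match in capitals (the Dnmt1 match reads on the opposite strand).

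Dnmt1: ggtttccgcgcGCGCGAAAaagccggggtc

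Uhrf1: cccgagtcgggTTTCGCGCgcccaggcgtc

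The Dnmt1 stretch is chr9:20952824-20952853 on the minus strand, and its match lies in an untranslated exon of a longer GENCODE transcript. The Uhrf1 stretch is chr17:56304117-56304146 on the plus strand, overlaps no annotated exon, and has its match beginning 185 bases before the listed start. The whole Uhrf1 window, chr17:56304063-56304312 on the plus strand, also holds 2 copies of CCAAT (either strand, found in 33.9% of all windows), likewise in capitals, and is printed to show the setting of the E2F letters.

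Uhrf1 window: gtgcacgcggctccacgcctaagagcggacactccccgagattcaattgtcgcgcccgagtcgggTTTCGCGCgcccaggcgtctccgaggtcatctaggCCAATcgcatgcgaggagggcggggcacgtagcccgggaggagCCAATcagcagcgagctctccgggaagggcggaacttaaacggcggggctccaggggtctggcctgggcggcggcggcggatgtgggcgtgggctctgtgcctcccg

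Counted by gene, TTTCGCGC occurred in 81 of 27025 genes (0.3%) and in 4 of the 33 genes of a DNA replication and S phase list that had a window, namely Mcm5, Mcm6, Rfc3 and Orc1. It also occurred in 1 of 16 mitosis genes and in 0 of 8 listed partners of the methyltransferases. None of these matches shows binding. CpG pairs, the substrate of the members' own products, numbered 2 to 51 in the 12 windows against a median of 6 over all windows, and the highest number was at Tet2.

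The values are FPKM, which scale each gene's fragments by its length and by library depth, so levels of different genes can be set side by side. Libraries held 18.3 to 32.5 M recovered reads in the first cohort and 5.82 to 9.57 M in the GFP cohort. The members rested on 176 reads (Tet2 in a GFP-low HSC library) to 6876 reads (Dnmt1 in a total HSC library). All 12 HSC markers listed, such as Procr and Mecom, averaged 1 FPKM or more in the HSC tables. Of the 12, 9 did so in total MPPs and 10 in each GFP population of MPPs. Summed, these markers did not tell the cell types apart. Their WT sums averaged 376.5 FPKM in total HSCs and 392 in total MPPs. In GFP-high cells these means were 652.8 and 669.9, and in GFP-low cells 500.9 and 497, with overlapping libraries throughout. Flt3, a receptor that marks multipotent progenitors, ran from 1.49 to 6.98 FPKM in HSC libraries and from 18.7 to 60.2 in MPP libraries. Hira itself did not separate the labels: the log2 difference ran from -0.23 to 0.13 over the 6 tables and the groups overlapped in each, which is a value over the whole gene and need not show a deletion of some exons. The groups are therefore called labelled KO. Labelled KO replicate 3 stood apart in 2 tables, with summed mature neutrophil markers of 28929 FPKM in GFP-low HSCs and 23961 in GFP-high MPPs against 2066 to 6279 in the other 10 libraries of those tables. Values without it are given for Dnmt1, Uhrf1, the S phase genes and the erythroid markers; those for the S phase genes, the markers and the GFP-low to GFP-high comparison were chosen after the data were seen. In bulk RNA, fewer cells of a type and less RNA per cell cannot be told apart.

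Among the members, Dnmt1 and Uhrf1 were the most abundant in WT cells, and Tet2 the least. In WT HSCs of the first cohort the means were 37.4 ± 6.76 FPKM for Uhrf1, 32.5 ± 4.02 for Dnmt1, 15.3 ± 0.631 for Dnmt3b, 6.44 ± 0.646 for Dnmt3a, 4.75 ± 0.400 for Tet3, 2.51 ± 0.285 for Tet1 and 1.58 ± 0.401 for Tet2 (SD, n = 4). Of these neighbours only Uhrf1 and Dnmt1 overlapped in their library ranges. The same order of means held in each of the 6 WT groups, with Uhrf1 and Dnmt1 overlapping in 3 of them and Dnmt1 reaching down into the range of Dnmt3b in total MPPs. Across those groups Dnmt3b was always above Dnmt3a without overlap. This order rests on the transcript lengths the authors divided by, which are not given in the sources used here: in GFP-high HSCs 513 to 942 reads lay behind Dnmt3a and 595 to 941 behind Dnmt3b. Tet3 overlapped with Tet1 in the 4 GFP populations, Dnmt3a with Tet3 in GFP-high MPPs, and Tet1 with Tet2 in GFP-high HSCs.

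No member passed the test in any of the 6 comparisons of labelled KO with WT (limma on log2(FPKM + 1), with p adjusted by Benjamini-Hochberg across every gene tested in a table and a threshold of 0.05). Few genes passed at all: 0.124% of 13717 tested genes in total HSCs, 0.108% in total MPPs, 0.0276% in GFP-high HSCs, 0.320% in GFP-low MPPs, and none for GFP-low HSCs and GFP-high MPPs. At an unadjusted p under 0.05, limma gave 10.1% of genes in total HSCs, 16.6% in total MPPs, 10.4% in GFP-high HSCs, 8.57% (917 genes) in the GFP-low HSC table, 7.09% (765 genes) in the GFP-high MPP table and 12.3% in GFP-low MPPs. At that level stood Dnmt1 and Uhrf1 in the 4 GFP tables, Dnmt3a and Dnmt3b in total MPPs and Tet1 in GFP-low MPPs. A difference is given as labelled KO minus WT on log2(FPKM + 1) unless another scale is named, and a fold on that scale understates the change of a low gene.

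Dnmt1, the maintenance methyltransferase, had lower values in every labelled KO library than in any WT library of the same table in all 4 GFP populations. In GFP-high HSCs the WT libraries read 19.9, 17.7 and 18.3 FPKM and the labelled KO libraries 13.3, 12.4 and 15.1. In GFP-low HSCs the WT libraries read 25.1, 25.3 and 25.4 FPKM and the labelled KO libraries 14.2, 18.6 and 18.4. The 3 WT libraries of GFP-low HSCs lay almost on one value, and the nearest labelled KO library stood well below them. In GFP-high MPPs the WT libraries read 16.9, 18.3 and 17.4 FPKM and the labelled KO libraries 12.8, 11.4 and 12.2. In GFP-low MPPs the WT libraries read 22.8, 23.9 and 22.0 FPKM and the labelled KO libraries 16.8, 15.5 and 15.5. The groups overlapped in none of the 4 tables.

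**Figure D1:**
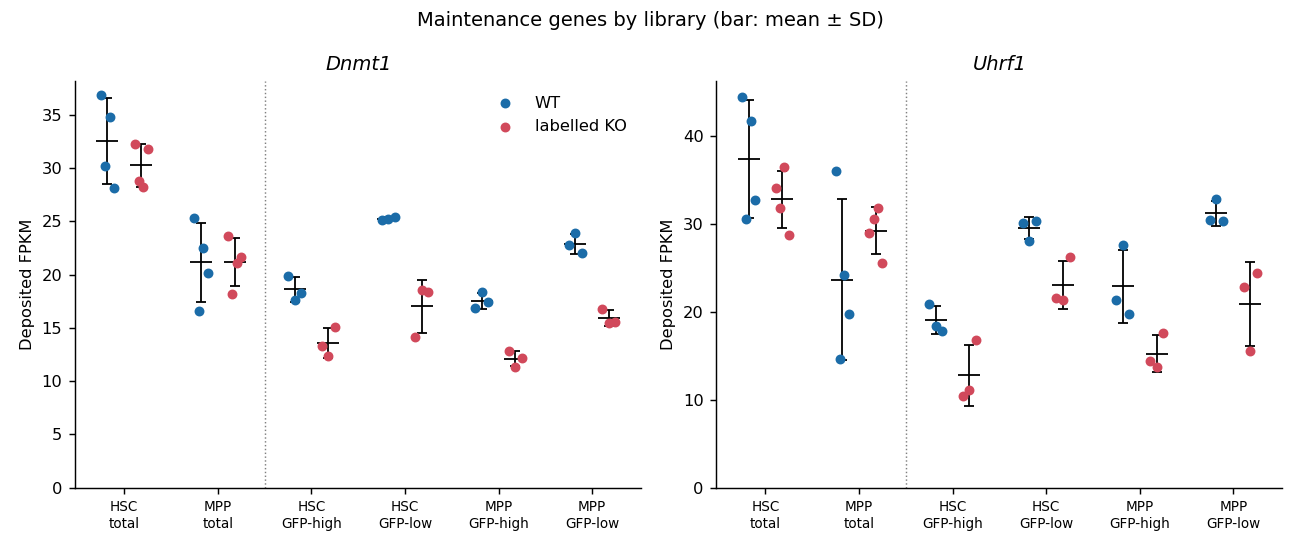
Deposited FPKM of Dnmt1 and Uhrf1 (vertical axes) in each of the 40 libraries, by population (horizontal axes), with WT in blue and labelled KO in red; black bars give mean and SD over 3 or 4 libraries. Right of the dotted line, in the 4 GFP populations, the red points of both genes lie below the blue ones, whereas in the first cohort left of it they overlap; tables were scaled separately, so heights compare only within a population.

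The log2 difference of Dnmt1 was -0.43 in GFP-high HSCs (95% interval -0.69 to -0.17, limma adjusted p = 0.280), or 0.742-fold. It was -0.55 in GFP-low HSCs (-0.87 to -0.23, adjusted p = 0.346), or 0.683-fold. In GFP-high MPPs the difference was -0.50 (-0.77 to -0.23, adjusted p = 0.460), and in GFP-low MPPs -0.50 (-0.74 to -0.26, adjusted p = 0.109). These 4 intervals left out 0, and the unadjusted p ranged from 0.00125 to 0.00456, yet none passed over all genes tested. As background, the groups did not overlap with labelled KO lower in 7.47%, 6.42%, 6.59% and 9.33% of tested genes in these 4 tables, in the order just given. Without labelled KO replicate 3, the library rich in neutrophil RNA, the difference was -0.61 in GFP-low HSCs (adjusted p = 0.193) and -0.50 in GFP-high MPPs (adjusted p = 0.206).

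In the first cohort Dnmt1 showed no such separation. Total HSCs had 36.9, 30.2, 34.8 and 28.2 FPKM in WT and 32.3, 28.7, 28.3 and 31.8 in labelled KO, a log2 difference of -0.09 (-0.32 to 0.13, adjusted p = 0.789). Total MPPs had 25.3, 16.6, 22.6 and 20.2 FPKM in WT and 23.6, 18.2, 21.1 and 21.7 in labelled KO, a log2 difference of 0.01 (-0.31 to 0.32, adjusted p = 0.985). The groups overlapped in both cell types, and the interval in total MPPs reached as low as -0.31, so a difference smaller than those of the GFP tables would not have been detected. The cohorts differed in time after poly(I:C), in GFP alleles and in doxycycline, so these cannot be told apart, and no test between cohorts was made.

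Uhrf1, which binds half-methylated DNA and brings DNMT1 to it, was likewise lower in every labelled KO library than in any WT library of the 4 GFP tables. In GFP-high HSCs the WT libraries read 20.8, 18.4 and 17.8 FPKM and the labelled KO libraries 10.4, 11.1 and 16.8. In GFP-low HSCs the WT libraries read 30.1, 28.1 and 30.4 FPKM and the labelled KO libraries 21.6, 21.3 and 26.2. Labelled KO replicate 3 was the highest of its group in both, though below each WT library. In GFP-high MPPs the WT libraries read 21.4, 27.6 and 19.7 FPKM and the labelled KO libraries 14.4, 13.7 and 17.6. In GFP-low MPPs the WT libraries read 30.4, 32.8 and 30.3 FPKM and the labelled KO libraries 22.8, 15.5 and 24.4. Here too labelled KO replicate 3 was the highest of its group, and no table showed an overlap.

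In HSCs the log2 difference of Uhrf1 was -0.57 for GFP-high cells (95% interval -0.95 to -0.18, adjusted p = 0.320) and -0.35 for GFP-low cells (-0.65 to -0.05, adjusted p = 0.538). In MPPs it was -0.55 for GFP-high cells (-0.92 to -0.18, adjusted p = 0.546) and -0.58 for GFP-low cells (-0.96 to -0.20, adjusted p = 0.220). Without labelled KO replicate 3 they were -0.44 in GFP-low HSCs (adjusted p = 0.241) and -0.65 in GFP-high MPPs (adjusted p = 0.206). In the first cohort the difference was -0.17 in total HSCs (-0.46 to 0.12, adjusted p = 0.694). In total MPPs it pointed the other way, at 0.36 (-0.12 to 0.85, adjusted p = 0.440), with WT libraries from 14.6 to 36.0 FPKM around the labelled KO libraries at 25.6 to 31.8.

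Whether the size of the Hira label's difference depended on division history was tested as a difference of differences, and no gene passed in either cell type (0 of 10501 in HSCs and 0 of 10417 in MPPs by limma, with 352 and 281 at an unadjusted p under 0.05). For Dnmt1, GFP-low minus GFP-high was -0.12 in HSCs (95% interval -0.50 to 0.26) and 0.00 in MPPs (-0.30 to 0.30). For Uhrf1 it was 0.22 in HSCs (-0.26 to 0.69) and -0.03 in MPPs (-0.55 to 0.49). These intervals are as wide as the differences themselves, so like effects in both gates are not shown. In the first cohort the difference of MPPs minus HSCs was 0.54 for Uhrf1 (-0.04 to 1.12, adjusted p = 0.662) and 0.10 for Dnmt1 (-0.27 to 0.47, adjusted p = 0.932), where 1 of 13166 genes passed (0.0076%).

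Dnmt1 and Uhrf1 were among 36 of 10166 genes (0.354%) that lay below WT without overlap in all 4 GFP tables, against 43 genes (0.423%) above WT in all 4. Same-numbered libraries of one genotype deviated together between the GFP gates of a cell type (Pearson r 0.165 to 0.524 over 12 pairs), so the 4 tables are not 4 separate experiments. The 4 populations were therefore also averaged by genotype and number, a test added after the data were seen, leaving 3 WT and 3 labelled KO values. This also joins HSCs with MPPs of one number. Between them r ran from 0.213 to 0.412 in GFP-high cells and from -0.0749 to 0.452 in GFP-low cells, so not every such pair deviated together. Dnmt1 then stood at -0.49 (SE 0.0759, 95% interval -0.67 to -0.32, limma adjusted p = 0.0507), just outside the threshold and rank 27 of 10166 genes by p. Uhrf1 stood at -0.51 (-0.78 to -0.24, adjusted p = 0.149, rank 151). In that test 24 genes passed (0.236%), 9 of them lower in labelled KO (0.0885%). Without labelled KO number 3 in all 4 populations both genes passed, Dnmt1 at -0.52 (adjusted p = 0.0325) and Uhrf1 at -0.64 (adjusted p = 0.0311). Leaving out any other number kept the limma adjusted p of Dnmt1 between 0.116 and 0.227 and that of Uhrf1 between 0.239 and 0.396. Number 3 was not rich in neutrophil markers in GFP-high HSCs (4363 FPKM) or GFP-low MPPs (3727 FPKM). It held the highest Uhrf1 of the labelled KO libraries in each GFP table, so leaving it out widens that difference. The share of all genes passing in this setting is not given here, so the 2 passes lack a background.

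**Figure D2:**
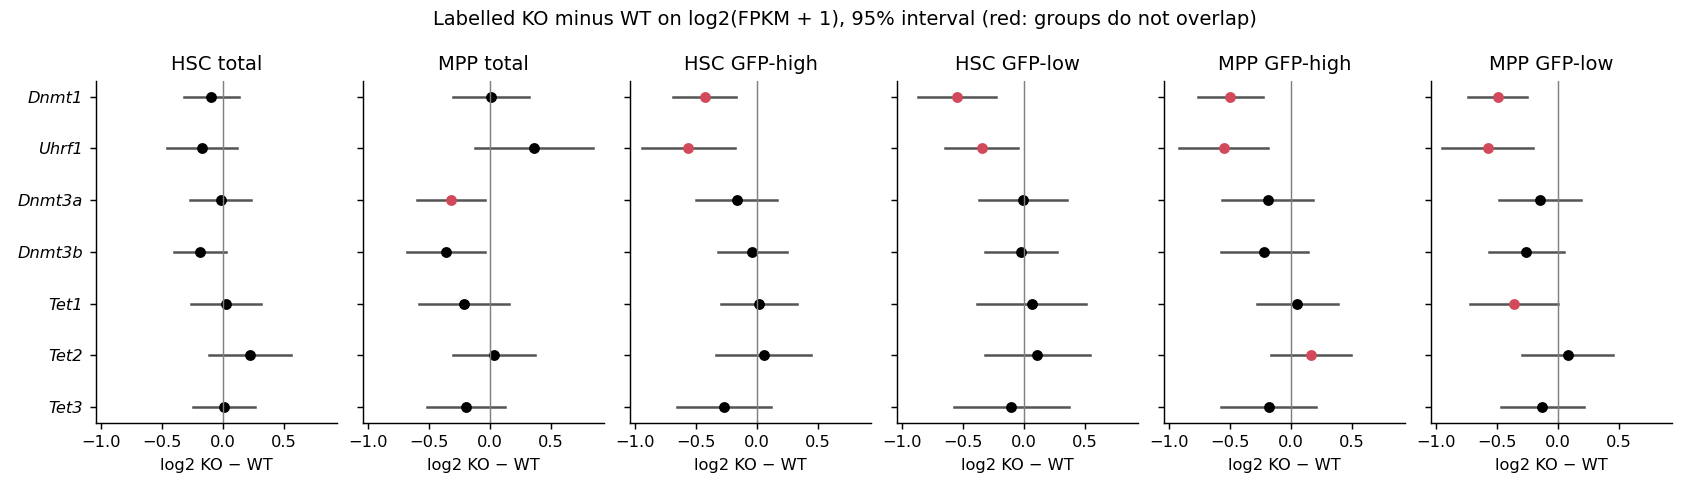
Difference of labelled KO minus WT on log2(FPKM + 1) (horizontal axes) with its 95% interval from limma for the 7 members (vertical axis) in the 6 populations; red points mark members whose libraries did not overlap between groups. Red points recur for Dnmt1 and Uhrf1 in the 4 GFP panels at -0.35 to -0.58, while the other 5 members run from -0.36 to 0.22 over the 6 panels, with 3 red points among them.

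Both genes are transcribed mostly in cycling cells, so their differences were set beside those of 42 genes of DNA replication and S phase, such as Mcm5, part of the replicative helicase, and Pcna, the sliding clamp. No gene of this list passed in any of the 6 comparisons. The list's median difference in HSCs was -0.29 for GFP-high and -0.18 for GFP-low cells, and in MPPs -0.30 and -0.19, while the median over all tested genes was 0.00 after rounding in each. Negative differences were held by 41, 36, 38 and 34 of the 42 S phase genes, in that order, against 50.4%, 50.8%, 49% and 49.6% of all tested genes. Mcm5 stood at -0.42, -0.19, -0.37 and -0.22 and Pcna at -0.24, -0.27, -0.40 and -0.13. Markers of mitosis did not follow evenly. Their median was -0.41, -0.12, -0.19 and 0.15 in the same order. Ccnb1, the mitotic cyclin, stood at -0.70, -0.13, 0.10 and 0.54, and Mki67, a marker of cycling cells, at -0.49, -0.12, -0.25 and 0.10.

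Dnmt1 lay toward the lower end of that S phase list. Among HSCs, 34 (GFP-high) and 41 (GFP-low) of the 42 genes had a difference above that of Dnmt1, and among MPPs, 39 and 41 did. For Uhrf1 the numbers were 41 and 38 in HSCs and 41 and 41 in MPPs. Without labelled KO number 3 the numbers for Dnmt1 were 30 and 40 in HSCs and 27 and 41 in MPPs, and those for Uhrf1 were 41, 34, 38 and 41. The mean level of the list was lower in labelled KO without overlap in GFP-high HSCs, and in the other 3 GFP tables it overlapped through labelled KO number 3 alone. Without that number the level was lower without overlap in all 4 GFP tables, with differences of -0.39 and -0.27 in HSCs and -0.42 and -0.23 in MPPs, against -0.30, -0.18, -0.27 and -0.15 with it. In total HSCs 36 of 41 S phase genes were below 0, against 50.2% of all genes. Their median was -0.16, and the level of the list overlapped. Of 20 mitosis genes 17 were above 0 in that table. In total MPPs, where 49.6% of all genes were below 0, the S phase list had a median of 0.32. Its level there was higher in all 4 labelled KO libraries than in all 4 WT libraries. Dnmt1 did not share this, since 36 of 41 S phase genes lay above it there.

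**Figure D3:**
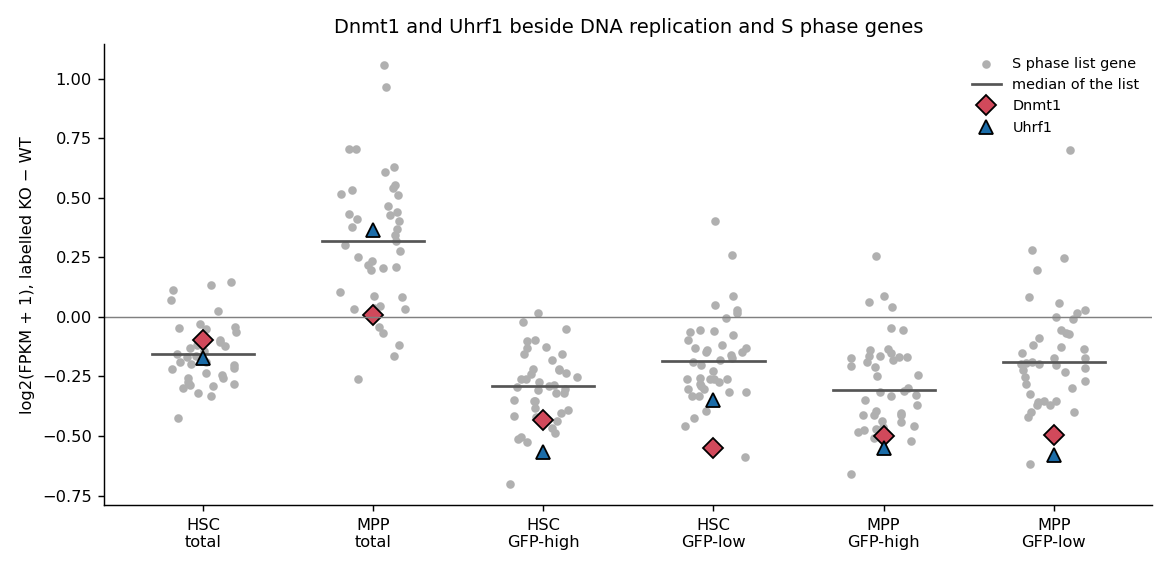
Difference of labelled KO minus WT on log2(FPKM + 1) (vertical axis) for genes of the DNA replication and S phase list (grey points, spread sideways at random; 41 or 42 genes), their median (line), Dnmt1 (red diamond) and Uhrf1 (blue triangle) in the 6 populations. In the 4 GFP populations both markers lie below the list's median, and in total MPPs the list sits above 0 while Dnmt1 stays at 0.01.

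Taken relative to the mean S phase level of the same library, on log2(FPKM + 1), Uhrf1 remained lower in labelled KO without overlap in all 4 GFP tables, with differences of -0.27, -0.17, -0.28 and -0.43 in the order above. On this scale 0.544%, 1.68%, 0.436% and 2.37% of all tested genes were lower in labelled KO without overlap. Without the subtraction these shares were 7.47%, 6.42%, 6.59% and 9.33%. The mean S phase level was itself lower in labelled KO in these tables, so subtracting it moves all other genes upward there. The smaller shares therefore do not show how rare the result for Uhrf1 is. In total MPPs, where the S phase level was higher in labelled KO, the subtraction acts the other way. Dnmt1 relative to S phase was lower without overlap in GFP-low HSCs (-0.38), in GFP-low MPPs (-0.35) and in total MPPs (-0.31, where 17.6% of all genes were), and overlapped in GFP-high HSCs (-0.13) and GFP-high MPPs (-0.23). The value in GFP-high MPPs rested on labelled KO number 3, without which it was -0.085. The 3 other GFP values without that number were -0.11 and -0.34 in HSCs and -0.25 in GFP-low MPPs, and Uhrf1 then stood at -0.37, -0.17, -0.23 and -0.47. These values are given as a description without a test. What share of either gene's difference goes with the number of cells in S phase was not tested.

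Markers of other cells also moved in these tables. The 8 erythroid marker genes present summed to 814 to 847 FPKM in WT GFP-low HSCs and 1295 to 2393 in labelled KO, and to 876 to 1369 in WT GFP-low MPPs and 1853 to 2237 in labelled KO, where 2 genes of the list, Epor and Car2, passed as higher. In GFP-high MPPs they summed to 742 to 986 in WT and 1049 to 1955 in labelled KO. Labelled KO replicate 3 was the highest in these 3 tables, and the other labelled KO libraries, at 1295 to 1365, 1853 to 2046 and 1049 to 1168 in the order given, were also above each WT library. In GFP-high HSCs the sums overlapped (890 to 1264 in WT, 976 to 1204 in labelled KO). Of the 8 genes 5 had a negative difference there, and only Car1 (-1.21) and Car2 (0.36) did not overlap. The 10 mature neutrophil markers summed to 5432 to 7307 in WT GFP-high HSCs and 4278 to 5423 in labelled KO, without overlap. Singly they were split, with 5 negative and 5 positive differences and a median of 0.01. S100a9 (-0.62) and Camp (-0.58) were lower without overlap there, and Mmp8 (0.96) was higher without overlap. The part of erythroid or neutrophil RNA in the differences of the other tables and of this one was not tested.

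Dnmt3a and Dnmt3b, the de novo methyltransferases, had their most negative differences in total MPPs. Dnmt3a read 8.08, 7.32, 7.52 and 8.37 FPKM in WT total MPPs and 6.38, 7.13, 5.75 and 5.15 in labelled KO, without overlap (such genes, lower in labelled KO, made up 4.84% of those tested). Its log2 difference was -0.32 (95% interval -0.60 to -0.04, adjusted p = 0.247). Dnmt3b read 20.1, 16.8, 15.3 and 16.1 FPKM in WT and 12.7, 10.7, 16.5 and 12.8 in labelled KO. Labelled KO replicate 3 fell inside the WT range, so the groups overlapped, with a difference of -0.36 (-0.68 to -0.04, adjusted p = 0.251). Both lay under an unadjusted p of 0.05, as did 16.6% of all genes tested in that table. In total HSCs, where 3.39% of genes were lower in labelled KO without overlap, no member was. Levels of cell type markers differed in total MPPs too. The 10 mast cell and basophil markers summed to 8.49 to 20.6 FPKM in WT and 25.5 to 76.1 in labelled KO, with 1 of 6 tested, Cpa3, passing as higher (limma adjusted p = 0.0161). The 12 HSC markers summed to 365 to 440 in WT and 272 to 329 in labelled KO, with none of 9 tested passing. B cell markers overlapped in their sums, 28.8 to 38.5 and 24.4 to 30.4, but all 3 tested had a negative difference. Of these, Vpreb1 (-0.91) and Igll1 (-1.15) were lower without overlap, and none passed. All 18 mitosis genes tested had a positive difference, with a median of 0.78. The part of these markers and mitosis genes in the values of Dnmt3a and Dnmt3b was not tested.

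In the other 5 tables Dnmt3a differed by -0.19 to -0.01 and Dnmt3b by -0.26 to -0.02, with overlapping groups throughout. Dnmt3b was thus below 0 in all 6 tables, as was Dnmt3a, but the values near 0 changed sign when single libraries were left out. In the GFP cohort Dnmt3a averaged 3.66 to 3.96 FPKM in the 4 WT groups and 3.29 to 3.63 in the labelled KO groups, and Dnmt3b 13.2 to 16.0 and 12.1 to 13.8.

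**Figure D4:**
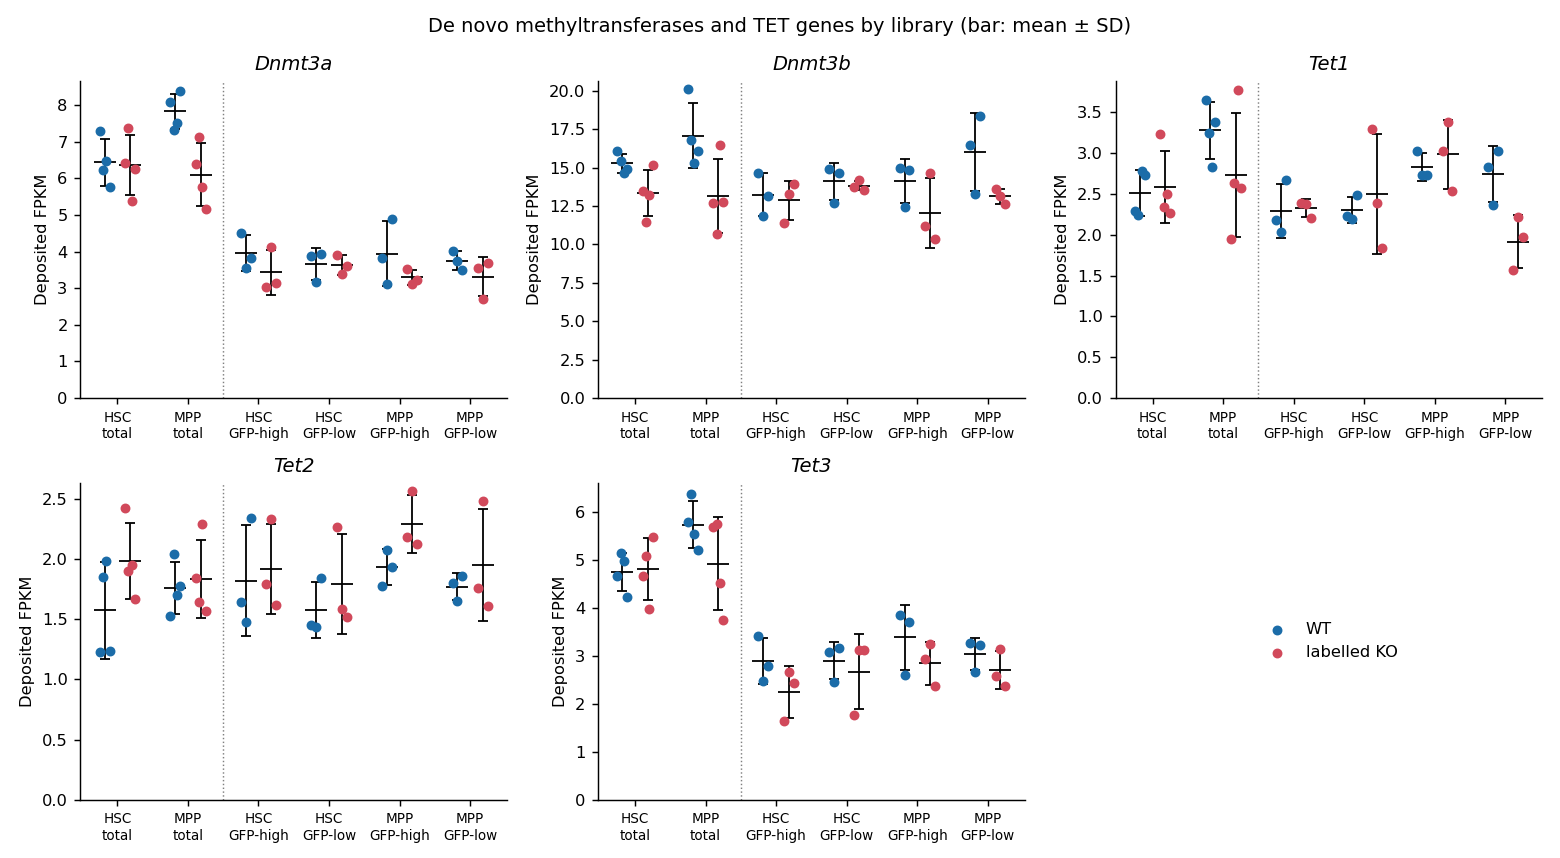
Deposited FPKM (vertical axes) of Dnmt3a, Dnmt3b, Tet1, Tet2 and Tet3 in each library by population (horizontal axes), WT in blue and labelled KO in red, with mean and SD in black. The groups overlap except for Dnmt3a in total MPPs and Tet1 in GFP-low MPPs, where labelled KO is lower, and Tet2 in GFP-high MPPs, where it is higher.

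Of the TET genes, whose enzymes oxidize 5-methylcytosine, Tet1 separated in a single table. That was GFP-low MPPs, where 9.33% of all tested genes were lower in labelled KO without overlap. Tet1 read 2.84, 2.37 and 3.03 FPKM there in WT and 1.56, 2.22 and 1.97 in labelled KO. Its log2 difference was -0.36 (95% interval -0.72 to -0.00, limma adjusted p = 0.402). In GFP-high MPPs the same gene read 3.03, 2.74 and 2.73 FPKM in WT and 3.03, 3.39 and 2.54 in labelled KO, a difference of 0.05 (-0.28 to 0.38). The difference between these differences was -0.41 (-0.84 to 0.02, adjusted p = 0.999), so a dependence on the GFP gate is not shown. In HSCs Tet1 differed by 0.02 to 0.06 in the 3 tables, and in total MPPs by -0.21 (adjusted p = 0.555), all with overlap.

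Tet2, the TET gene most often mutated in blood cancers, was the lowest member in every WT group, at 1.58 to 1.93 FPKM on average. Its difference was positive in all 6 tables, from 0.03 to 0.22, and passed in none. It turned negative in total MPPs with libraries rescaled to one total, and in 4 tables when single libraries were left out. In GFP-high MPPs the WT libraries read 1.78, 2.08 and 1.94 FPKM and the labelled KO libraries 2.18, 2.57 and 2.13, which do not overlap (6.74% of tested genes were higher in labelled KO in this way), with a difference of 0.17 (-0.16 to 0.49, adjusted p = 0.878). In total HSCs the difference was 0.22 (-0.12 to 0.56, adjusted p = 0.663), with overlap. Tet3 differed by -0.27 to 0.01, and its groups overlapped in every table. Its most negative value, -0.27 in GFP-high HSCs (-0.66 to 0.11, adjusted p = 0.626), came with 3.42, 2.48 and 2.80 FPKM in WT and 1.63, 2.66 and 2.43 in labelled KO.

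Levels in GFP-low cells were set beside those in GFP-high cells without a test, since each table had been scaled on its own. The median gene differed by -0.01 to 0.02 (log2, low minus high) between the 2 tables of a cell type and genotype. In WT HSCs Dnmt1 averaged 18.6 ± 1.17 FPKM in GFP-high and 25.3 ± 0.127 in GFP-low cells (SD, n = 3), and Uhrf1 19.0 ± 1.60 and 29.5 ± 1.26. In WT MPPs Dnmt1 averaged 17.5 ± 0.728 and 22.9 ± 0.926, and Uhrf1 22.9 ± 4.15 and 31.2 ± 1.41. All WT libraries of the more divided GFP-low cells lay above all those of GFP-high cells for both genes and both cell types, and the same held relative to the library total. Among all genes compared, 10.1% in WT HSCs and 8.82% in WT MPPs were higher in GFP-low cells in this way.

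In labelled KO cells the means of both genes were likewise higher in GFP-low cells. Uhrf1 averaged 12.8 ± 3.48 FPKM in GFP-high and 23.0 ± 2.75 in GFP-low HSCs, without overlap, and Dnmt1 12.1 ± 0.732 and 16.0 ± 0.758 in MPPs, without overlap. Dnmt1 in HSCs (13.6 ± 1.41 and 17.0 ± 2.47) and Uhrf1 in MPPs (15.3 ± 2.08 and 20.9 ± 4.76) overlapped, and neither did without labelled KO number 3. Labelled KO GFP-low HSCs therefore held Dnmt1 at 17.0 FPKM, near the 18.6 of WT GFP-high HSCs, although the 2 tables do not share a scale. The share of all genes higher in GFP-low cells without overlap was 10.2% in labelled KO HSCs and 7.66% in labelled KO MPPs.

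A ratio inside each library needs no common scale. Dnmt1 over Dnmt3b was 1.41 ± 0.0662 in WT GFP-high and 1.80 ± 0.162 in WT GFP-low HSCs, and Uhrf1 over Dnmt3b 1.44 ± 0.0991 and 2.10 ± 0.0964, both without overlap, as for 4.03% of all genes over Dnmt3b. In WT MPPs these ratios overlapped (1.26 ± 0.187 and 1.46 ± 0.303 for Dnmt1). Of the remaining members only Tet1 in labelled KO MPPs separated on the FPKM scale, at 2.98 ± 0.427 in GFP-high and 1.92 ± 0.330 in GFP-low cells, where 7.28% of all genes were lower in this way. On that scale Dnmt3a, Dnmt3b, Tet2 and Tet3 overlapped between the gates in both cell types and both genotypes. As a ratio to Dnmt3b, some were lower in GFP-low than in GFP-high cells without overlap. These were Dnmt3a in WT HSCs (0.299 in GFP-high, 0.259 in GFP-low), Tet1 in WT MPPs (0.202, 0.172) and labelled KO MPPs (0.249, 0.147), and Tet3 in WT MPPs (0.238, 0.191). Such ratios also move with Dnmt3b itself, and the share of all genes lower in this way is not given here.

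Across the 40 libraries, with each gene centred on the mean of its table, Dnmt1 and Uhrf1 correlated at Pearson r = 0.784. These correlations are descriptions over libraries that share tables, genotype groups and cell cycle state. The genes most like Dnmt1 among 9336 compared were Lig1 (r = 0.838), the ligase of the replication fork, Cenpm (0.836), a centromere protein, and Phf19 (0.831), a Polycomb-associated protein. Those most like Uhrf1 were Dnph1 (0.885), an enzyme of nucleotide turnover, Cdt1 (0.885), a replication licensing factor, and Lig1 (0.883). Tet2 ran against both, at -0.398 with Dnmt1 and -0.400 with Uhrf1.

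The de novo and TET genes had weaker partners. Dnmt3a was most like Ubr4, Gsk3a and Ankrd11 (r = 0.709, 0.701 and 0.690) and Dnmt3b most like Ankrd52, Mtor and Sp110 (0.699, 0.698 and 0.686). Tet1 was most like St7, Zbtb20 and Vps13b (0.651, 0.629 and 0.627), Tet2 most like Rabgap1, Clcn6 and Kmt2c (0.636, 0.630 and 0.628), and Tet3 most like Foxj3, Cbl and Tnpo2 (0.756, 0.729 and 0.710). Among the members, Dnmt3a with Tet3 (0.533) and Dnmt3b with Tet1 (0.498) came next after Dnmt1 with Uhrf1.

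The wider pathway was followed in 51 further genes: partners of the methyltransferases, readers of methylated CpG, binders of unmethylated CpG, TET cofactors with demethylation repair, and the supply of methyl donors. Between 43 and 46 of them were tested in a table and 0 passed in any of the 6 comparisons. By limma at an unadjusted p under 0.05 the HSC tables gave 7 of 46 (total), 4 of 44 (GFP-high) and 0 of 44 (GFP-low). The shares of all tested genes there were 10.1%, 10.4% and 8.57%. The MPPs, in the same order, gave 4 of 45, 1 of 45 and 2 of 43, against 16.6%, 7.09% and 12.3% of all tested genes. The median difference over these genes lay between -0.08 and -0.02 in the 6 tables, while the median over all genes was 0.00 after rounding.

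Genes with the smallest p in each table are named. In total HSCs Neil1, a glycosylase of base excision repair, stood at -0.45 (adjusted p = 0.230), without overlap. In total MPPs Idh3a, a subunit of the mitochondrial enzyme that makes the TET cosubstrate 2-oxoglutarate, stood at 0.55 (57.6 ± 4.80 FPKM in labelled KO against 39.3 ± 6.25 in WT, n = 4, limma adjusted p = 0.0898). Mthfd1 of the folate cycle stood at 0.37 there (adjusted p = 0.146). In GFP-high HSCs Zbtb38, a methyl-CpG reader, stood at -0.37 (3.71 ± 0.0540 FPKM against 5.09 ± 0.250, n = 3, limma adjusted p = 0.349) and Cxxc5, a binder of unmethylated CpG, at 0.40 (adjusted p = 0.382).

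In GFP-low HSCs Shmt1, an enzyme of the folate cycle, stood at -0.31 (adjusted p = 0.664) and Zbtb38 again at -0.32 (0.672), both with overlap. In GFP-high MPPs D2hgdh, which clears D-2-hydroxyglutarate, stood at 0.34 (0.682) and Xrcc1, a scaffold of base excision repair, at -0.31 (0.724). In GFP-low MPPs Mat2b, a subunit of the enzyme that makes S-adenosylmethionine, stood at 0.41 (0.238) and Zfp57, which protects methylation at imprinted regions, at -0.60 (0.340) on a WT mean of 1.21 FPKM. Of the genes named, only Zbtb38 came up in more than 1 table, whereas Hells, the chromatin remodeler that aids maintenance methylation, stood at -0.41 in the mean over the 4 GFP populations (limma adjusted p = 0.368) and was picked out after its value was seen.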

How the data were processed

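PolyA RNA of sorted cells was amplified with SMART-Seq2 and Nextera XT, per the labels' protocols. The authors deposited 6 tables of FPKM values, and the submitters' processing notes name STAR, DESeq2, HOMER and mm10 without roles or versions. Within a deposited table, libraries shared one median ratio to the geometric mean library, so each table had been scaled by itself. FPKM steps gave whole reads (within 0.01) for 99.99% of genes, used for depth alone. All 40 value columns were used.

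Log2(FPKM + 1) values were tested 2-sided in limma 3.58.1 (R 4.3.3) with an intensity trend. Genes needed 1 FPKM in at least 4 libraries (first cohort) or 3 (GFP cohort). Code was tested on simulated data. Members and lists were chosen with earlier results of these data known. Every member was named. Of the pathway lists the rule took genes past the test, otherwise the 2 smallest p, and for likeness the 3 highest correlations. Results that need items withheld from this text are not reported here. Alternatives were a pseudocount of 0.1, no filter, libraries rescaled to one total, a replicate block and leaving out each library. Within a table, same-numbered WT and labelled KO libraries were mixed (r -0.178 to 0.435, not above 0.1 in every pair of any table), and the labels name no shared animal, so they were not taken as pairs.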

Additional observations from a re-analysis of the deposited data

How the results depend on the processing

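No member passed in any of the 6 comparisons or the 3 differences of differences under any setting tried, and Dnmt1 and Uhrf1 kept a negative sign in the 4 GFP tables under each of them. In the mean over those 4 populations, which was added after the data were seen, 0 members passed, and 2 did (Dnmt1 and Uhrf1) without labelled KO replicate 3. The share of all genes passing without that replicate is not given here. With single libraries left out, that count ran from 0 to 2, the value of Dnmt1 from -0.52 to -0.48 and that of Uhrf1 from -0.64 to -0.41. Counts of all genes past the test moved more: from 17 to between 2 and 17 in total HSCs, from 15 to between 0 and 212 (without labelled KO replicate 4) in total MPPs, from 3 to between 0 and 3 in GFP-high HSCs, from 0 to at most 7 and 2 in GFP-low HSCs and GFP-high MPPs, and from 34 to between 0 and 52 in GFP-low MPPs.

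The replicate block, which takes same-numbered WT and labelled KO libraries as pairs, left 0 members past the test in each comparison. It moved the count of all genes from 15 to 137 in total MPPs and from 34 to 52 in GFP-low MPPs, and the adjusted p of Dnmt1 in the 4-population mean from 0.0507 to 0.0911. A block over libraries of one genotype and number, added after the data were seen, also left 0 in the differences between GFP gates.

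Values near 0 changed sign. With libraries rescaled to one total, which shifted the median of all genes by at most 0.0892, the log2 differences became -0.0195 (Tet1) and -0.0491 (Tet3) in total HSCs, -0.0648 (Dnmt1) and -0.0174 (Tet2) in total MPPs and 0.0367 (Dnmt3b) in GFP-high HSCs. Differences of differences became -0.099 (Dnmt3b), -0.0357 (Tet1) and -0.0214 (Tet2) in HSCs and -0.0357 (Dnmt1) in MPPs. With single libraries left out, the ranges in total HSCs were -0.0832 to 0.0474 (Dnmt3a), -0.0552 to 0.0689 (Tet1) and -0.0473 to 0.0802 (Tet3). In total MPPs they were -0.0968 to 0.0965 (Dnmt1) and -0.0391 to 0.082 (Tet2). For GFP-high HSCs they were -0.107 to 0.0401 (Dnmt3b), -0.0375 to 0.0976 (Tet1) and -0.0467 to 0.183 (Tet2). For GFP-low HSCs they were -0.0857 to 0.038 (Dnmt3a), -0.0903 to 0.0163 (Dnmt3b), -0.0922 to 0.207 (Tet1), -0.0108 to 0.182 (Tet2) and -0.203 to 0.0859 (Tet3). For MPPs they were -0.021 to 0.135 (Tet1, GFP-high) and -0.0471 to 0.161 (Tet2, GFP-low). The differences between GFP gates ranged in HSCs from -0.0634 to 0.084 (Dnmt3b), -0.11 to 0.189 (Tet1) and -0.0743 to 0.155 (Tet2). Those in MPPs ranged from -0.0382 to 0.0424 (Dnmt1), -0.0901 to 0.167 (Dnmt3a), -0.161 to 0.0959 (Dnmt3b), -0.165 to 0.164 (Uhrf1) and -0.0415 to 0.187 (Tet3). Between cell types of the first cohort Dnmt1 ranged from -0.00187 to 0.191, and Tet1 in the 4-population mean from -0.1 to 0.00191. For each of these the cause was not tested.

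With 3 libraries a group, differences such as that of Dnmt1 did not pass over all genes tested. Reads behind Tet2 numbered 176 to 330 in GFP libraries.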
